A study of Bos taurus with 20 samples.

Results

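The 3 genes described here, MX1, MX2 and GBP4, encode interferon-induced GTPases. They were found through the gene table of the 18KB array, a spotted cDNA array with 1536 clones of a subtracted cDNA library made to favour transcripts raised in bovine endometrium by pregnancy. Every clone whose single gene symbol is MX1, MX2 or GBP4 was taken, which gave 9 clones of MX1, 11 of MX2 and 1 of GBP4, or 21 clones of 3 genes among the 147 genes with a single symbol in the whole series. No clone of the 18KO array, which carries the library enriched in the opposite direction, has one of these symbols.

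The tissue was intercaruncular endometrium of the caudal uterine horn, ipsilateral to the conceptus or to ovulation, collected on day 18 from Simmental heifers whose cycles had been synchronised with the prostaglandin analogue Cloprostenol. The 4 pregnant heifers (animals 316, 426, 447 and 448, aged 17 to 20 months) had been inseminated with sperm, and an intact conceptus was found and removed. The 6 controls (animals 330, 404, 427, 434, 440 and 449, aged 18 to 22 months) had received the sperm-free supernatant of semen from the same bull, and no conceptus was found. Each animal gave 1 radioactively labelled cDNA sample that was hybridised to both arrays, so the replicate is the animal. The values are deposited spot intensities on a linear scale, and levels below are means of log2 intensity over the clones of a gene or their geometric means.

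On this day of gestation the bovine conceptus is not yet attached and its trophoblast, the outer cell layer, secretes interferon tau. This is a type I interferon: it binds the IFNAR receptor on uterine cells, and signalling from the receptor then switches on interferon-stimulated genes. MX1 and MX2 belong to the dynamin-like Mx GTPases, which assemble into oligomers and block steps in the replication of viruses. GBP4 belongs to the guanylate-binding proteins, large GTPases that are best known as targets of interferon gamma and act in the defence of cells against intracellular pathogens. MX1 and MX2 are neighbouring protein-coding genes in the RefSeq annotation of the assembly ARS-UCD2.0, flanked by FAM3B and TMPRSS2, and GBP4 lies elsewhere, between loci without a gene name.

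The comparison asked how far the 3 genes differed between pregnant and cyclic endometrium. All 3 rose in pregnant heifers: MX1 10.6-fold, MX2 9.32-fold and GBP4 5.91-fold. A rise means here an adjusted p under 0.01 and at least a 2-fold change, which 15.6% of the 1420 rows tested (86 genes and each clone without a single symbol) also reached, while 0.634% were called lower. For each gene the lowest pregnant animal lay above the highest control, by 2.97-fold for MX1, 2.85-fold for MX2 and 2.49-fold for GBP4, a separation found in 22.3% of all rows. Pregnant heifer 447 was highest and control 427 stood above the other controls for every one of the 3 genes. In these bulk samples a change in RNA per cell and a change in the share of cells that express a gene cannot be told apart.

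MX1 had a geometric mean intensity over its 9 clones of 16.4 in pregnant 316, 19.8 in 426, 27.4 in 447 and 16.9 in 448. In controls it was 1.73 in animal 330, 2.07 in 404, 5.52 in 427, 1.43 in 434, 1.28 in 440 and 1.16 in 449. Pregnant 447 was thus at 1.56 times the mean of the other 3 pregnant animals, which lay within 1.21-fold of one another. The controls other than 427 ran from 1.16 to 2.07. The mean log2 level was 4.30 ± 0.34 (SD, n = 4) in pregnant and 0.90 ± 0.82 (SD, n = 6) in control heifers, a log2 fold change of 3.40 ± 0.39 (SE, limma adjusted p = 7.61e-05).

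MX2 had a geometric mean over its 11 clones of 4.37 in pregnant 316, 4.97 in 426, 9.53 in 447 and 5.03 in 448. In controls it was 0.457 in animal 330, 0.422 in 404, 1.53 in 427, 0.511 in 434, 0.623 in 440 and 0.545 in 449. Heifers 447 and 427 each stood apart from the rest of their group, 447 at 1.99 times the mean of the other pregnant animals and 427 at 3.03 times that of the other controls. The mean log2 level was 2.51 ± 0.51 (SD, n = 4) against -0.71 ± 0.68 (SD, n = 6), a log2 fold change of 3.22 ± 0.36 (SE, limma adjusted p = 7.55e-05).

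GBP4, with its single clone, reached 4.01 in pregnant 316, 4.33 in 426, 6.63 in 447 and 4.50 in 448. In controls it was 0.54 in animal 330, 0.71 in 404, 1.61 in 427, 1.21 in 434, 0.65 in 440 and 0.57 in 449. Here 2 controls, 427 and 434, lay above the other 4. The mean log2 level was 2.25 ± 0.32 (SD, n = 4) against -0.31 ± 0.64 (SD, n = 6), a log2 fold change of 2.56 ± 0.32 (SE, limma adjusted p = 0.00011).

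**Figure D1:**
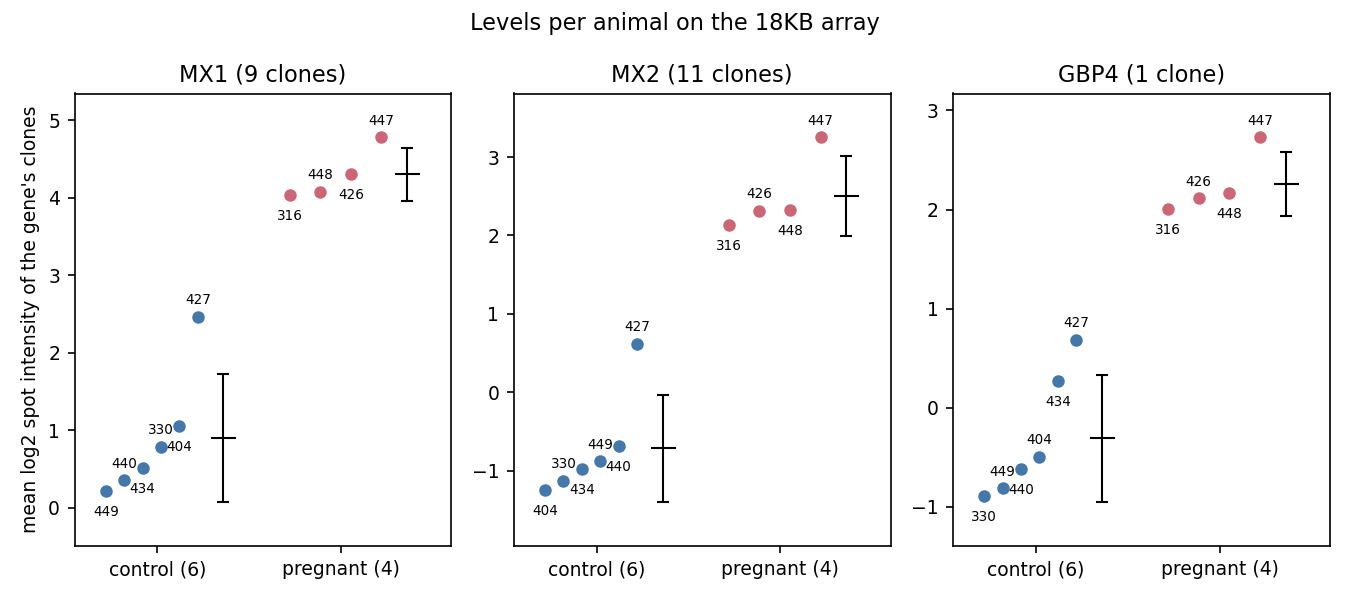
Mean log2 spot intensity of the clones of MX1, MX2 and GBP4 in each heifer, 1 point per animal with its number, for 6 controls and 4 pregnant animals; the bars are the group mean and SD, and each panel has its own scale. Every pregnant animal lies above every control, control 427 is the highest control and pregnant 447 the highest pregnant animal in each panel.

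Among the 86 genes with a symbol the share called higher was 77.9%, because clones had been sequenced chiefly when they differed between these same animals, so calls of all 3 genes are close to what their selection gives and are not independent evidence. Ordered by the size of the rise, MX1 ranked 8, MX2 11 and GBP4 22 among them. A two-sided exact permutation test over the 210 assignments of the animals gave p = 0.00476 for each gene, also after Benjamini-Hochberg adjustment over the 3, which is the smallest p that 4 against 6 animals allow. With every pregnant animal above every control, no other assignment gives a larger rise. The test restates that separation and, given the selection, is not independent evidence either. The median log2 fold change over all rows was 0.38. Setting the column medians equal took 0.83 off every value, leaving MX1 at 2.57, MX2 at 2.39 and GBP4 at 1.73, all still called. That step put the median row at -0.45. With 1 scaling factor per animal from both arrays, the median row was 0.148 and MX1, MX2 and GBP4 were 3.17, 2.99 and 2.33. All 3 were called there too. Relative to the median row the rises were 3.02, 2.84 and 2.18, which equal medians leave unchanged by construction, and after quantile normalization they were 3.03, 2.67 and 2.06.

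The individual clones all pointed the same way. All 21 clones were called higher, against 20.5% of the 1536 clones (0.716% were called lower), and in all 21 every pregnant animal lay above every control, against 26.7% of all clones. Clones of 1 gene share their target and are no replicates of a condition. Their fold changes differed: those of MX1 ran from 3.80-fold to 17.9-fold (median log2 3.72, SD over clones 0.70) and those of MX2 from 2.55-fold to 70.5-fold (median log2 3.19, SD over clones 1.37).

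Among MX1 clones the smallest rise was that of 18KB-15-C11, with intensities of 10.38, 14.08, 17.80 and 11.15 in pregnant 316, 426, 447 and 448 against 2.21 to 6.05 in controls (log2 1.93 ± 0.27, SE). The largest was that of 18KB-10-B04, with 12.99, 22.82, 20.49 and 14.42 in the same animals against 0.42 to 3.92 in controls (4.16 ± 0.52). These 2 clones differed more in controls than in pregnant heifers. The tightest group was that of clone 18KB-18-C03 in pregnant heifers, at 20.64 in 316, 21.41 in 426, 22.61 in 447 and 18.00 in 448.

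The group means of all MX1 clones spanned 2.01 times in pregnant heifers (13.1 to 26.3) and 3.63 times in controls (0.960 to 3.48). The group means of MX2 clones spanned 5.38 times in pregnant heifers (2.70 to 14.5), and 6.77 times in controls (0.370 to 2.50) once values were raised to at least the 10th percentile of the array; the lower end in controls is set by that floor. What sets the control level of a clone (fragment length, spot amount, cross-hybridisation between MX1 and MX2 or with other transcripts) was not tested.

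**Figure D2:**
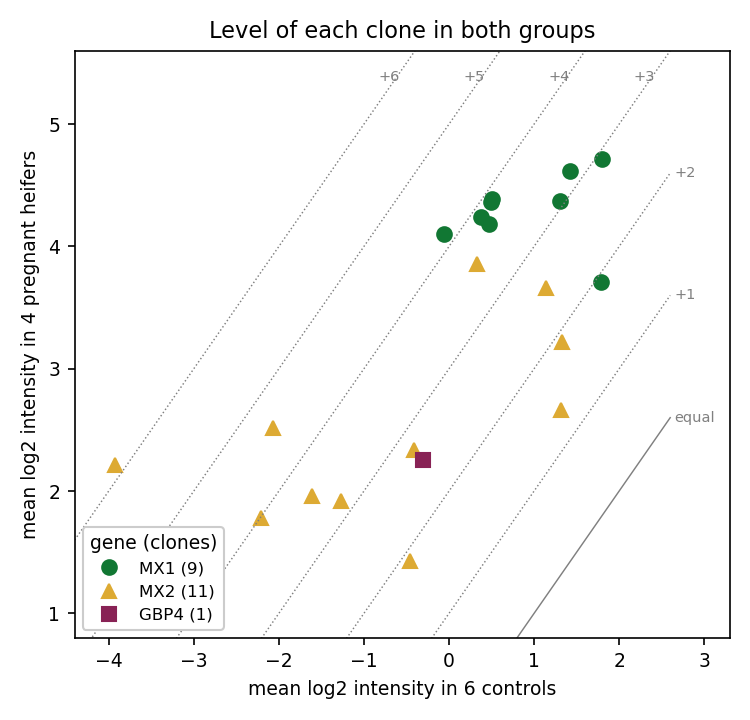
Mean log2 intensity of each clone in 4 pregnant heifers (y axis) against that in 6 controls (x axis), with MX1 as circles, MX2 as triangles and GBP4 as a square; the solid line marks equal levels and the dotted lines log2 differences of 1 to 6. All 21 clones lie above the first dotted line; the MX2 clone farthest to the left is 18KB-04-H10, whose place on the control axis is set in part by the floor of 0.01.

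The widest MX2 value came from a clone at the bottom of the scale. Clone 18KB-04-H10 had intensities of 3.02, 4.34, 8.39 and 4.21 in pregnant 316, 426, 447 and 448. In controls it was 0.01 in 330 and 404, the floor used here, and 0.76 in 427, 0.07 in 434, 0.17 in 440 and 0.09 in 449. Its 70.5-fold rise (log2 6.14 ± 1.07) became 12.5-fold (3.65) when all values were raised to at least their 10th percentile (0.32), which 5 of the 6 controls did not reach. In all, 5 of the 11 MX2 clones, and no MX1 or GBP4 clone (0), had a control under that percentile. Without this clone, an alternative chosen after seeing the data, MX2 had a log2 fold change of 2.93.

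At the other end, clone 18KB-05-G07 of MX2 had 6.09, 5.56, 9.18 and 5.20 in pregnant 316, 426, 447 and 448 against 1.78 to 3.44 in controls (1.35 ± 0.24). It was one of the 2 MX2 clones in which control 427 was not the highest control, with 2.30 against 3.44 in animal 330; the other was 18KB-18-E06, with 3.17 in 427 and 3.29 in 440. The call of 18KB-05-G07 was lost with equal column medians (0.52) and after quantile normalization (0.57), as was that of 18KB-04-E06 (1.06 and 1.05), so that 19 of 21 clones were called under either. Clone 18KB-04-E06 had the narrowest gap between the groups, 1.93 in pregnant 316 against 1.58 in control 427.

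**Figure D3:**
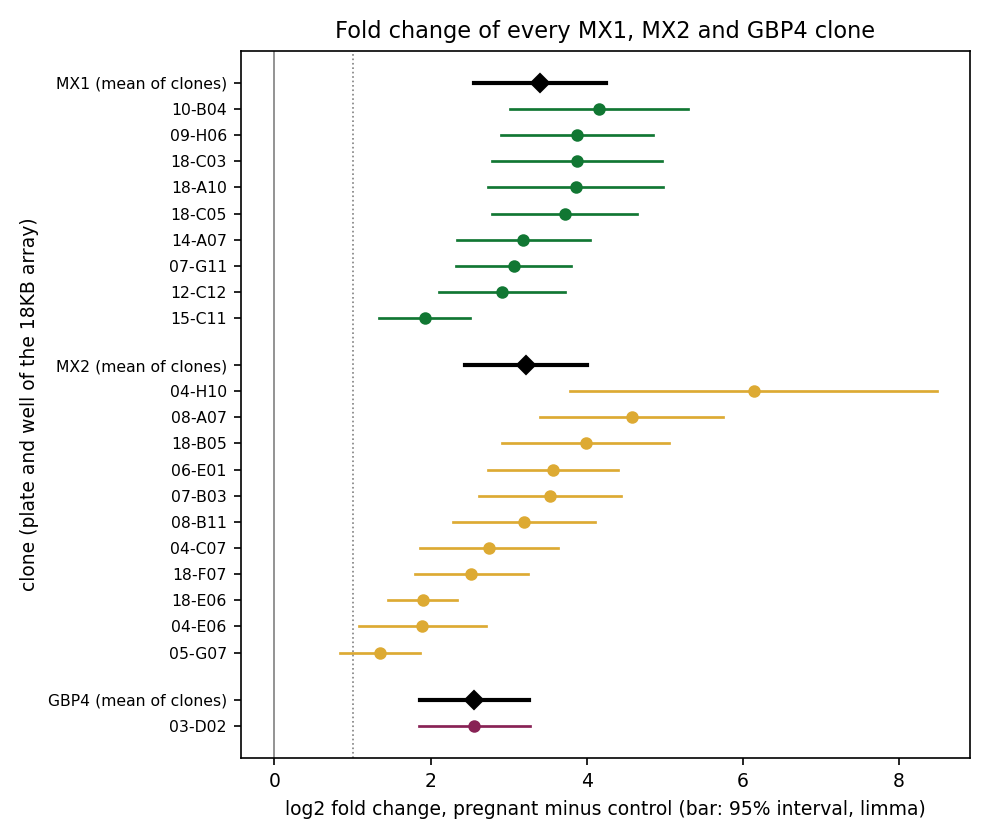
Log2 fold change, pregnant minus control, of each of the 21 clones (circles) and of the mean of the clones of each gene (diamonds), with 95% intervals from limma over 4 pregnant and 6 control heifers; the dotted line marks a 2-fold change. All point estimates lie to the right of the dotted line, from 1.35 for an MX2 clone to 6.14 for another MX2 clone with controls at the floor.

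Whether the genes rose by unequal amounts was tested on their differences within each animal, in which the scaling of an array cancels. The absolute difference between probes of 2 genes has no meaning here, and its change between groups is what was compared. MX1 minus MX2 was 1.53 to 1.99 in pregnant heifers and 1.04 to 2.29 in controls, so the pregnant values lay inside the control range. The fold changes differed by 0.18 on the log2 scale (two-sided exact permutation test, p = 0.5, and 0.5 after adjustment over the 3 pairs), which does not show that the paralogues rose equally.

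The rise of GBP4, read from 1 clone, was smaller than the clone averages of both Mx genes. Its log2 fold change of 2.56 lay within the range of single clones of MX1 (1.93 to 4.16) and of MX2 (1.35 to 6.14). The permutation over animals does not measure this spread between clones. MX1 minus GBP4 was 1.91 to 2.19 in pregnant and 0.24 to 1.78 in control heifers, a difference of 0.84, or 1.79-fold (exact permutation p = 0.0238, 0.0357 adjusted over 3 pairs). MX2 minus GBP4 was 0.12 to 0.52 in pregnant and -1.24 to -0.06 in control heifers, a difference of 0.66, or 1.58-fold (exact permutation p = 0.019, 0.0357 adjusted over 3 pairs). The groups did not overlap in either, but the control spread was wide, with animal 434 lowest in both. For MX2 the difference fell to 0.36 without clone 18KB-04-H10, a step chosen after seeing the data (exact permutation, adjusted p = 0.162), and to 0.27 with all values raised to at least the 10th percentile (adjusted p = 0.276), so it was called in neither. With that floor MX1 minus GBP4 was also uncalled (0.84, exact permutation, adjusted p = 0.0714). Both calls were lost without any 1 of the 4 pregnant heifers (differences of 0.79 to 0.88 for MX1 and 0.57 to 0.70 for MX2). They were also lost when each gene was represented by its brightest clone (0.35 for MX1, and -0.040 for MX2, with the sign turned) or by the median clone (1.02 and 0.33).

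**Figure D4:**
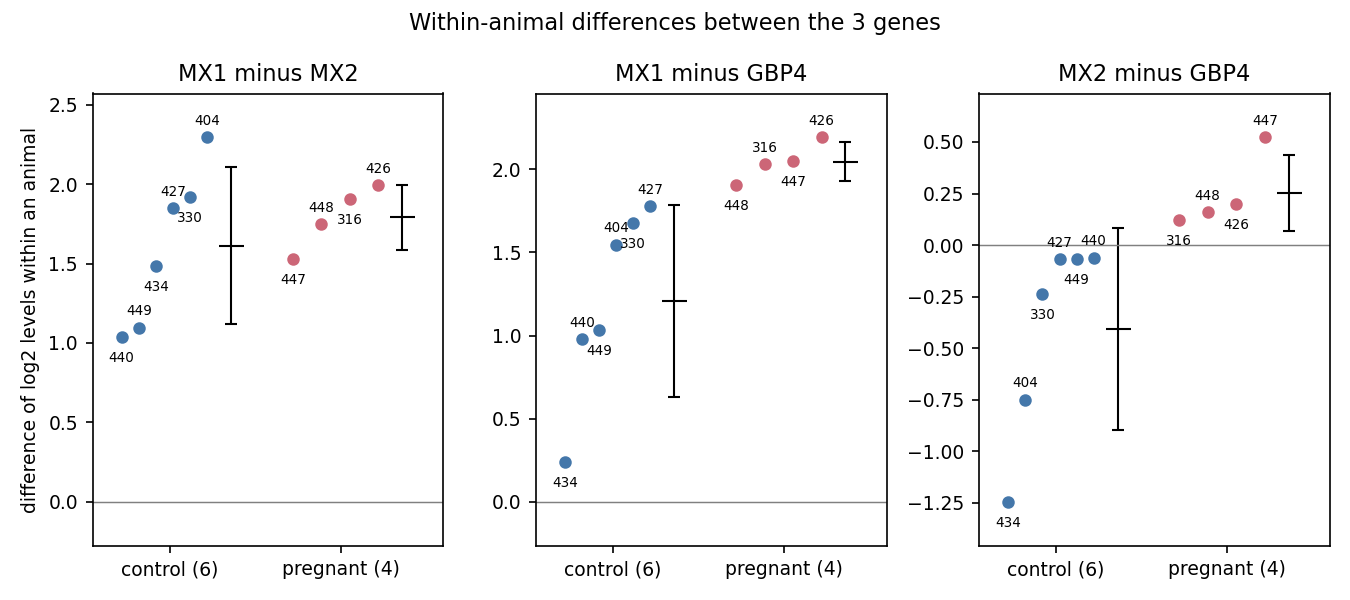
Difference of log2 levels between 2 genes within each heifer, 1 point per animal with its number, and the group mean and SD as bars, for the 3 pairs; each panel has its own scale. Pregnant and control animals overlap for MX1 minus MX2 and do not overlap for both differences from GBP4.

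Control 427 lay between the groups for all 3 genes. Its level was 3.68 times the mean of the other 5 controls for MX1, 3.03 times for MX2 and 2.29 times for GBP4, while the mean of the pregnant heifers was 3.57, 3.70 and 2.96 times that of 427. It was the highest control in 19 of the 21 clones, against 43.6% of all clones. Its array, like those of pregnant 426 and 447, held no value (0) at or below 0.01, where the other columns of the array held 9 to 16, and its lowest value was 0.11. The median of its column, 1.90, was the highest of the controls (1.385 to 1.685 in the other 5). On the 18KO array the column of 427 had the lowest control median, 2.025 against 2.235 to 3.895 in the other 5. Whether these properties of its 18KB array have a part in its higher values was not tested. Without control 427 the rises were larger and the errors smaller: 3.71 ± 0.23 for MX1, 3.49 ± 0.24 for MX2 and 2.76 ± 0.26 for GBP4 (SE), with 21 of 21 clones called. With those 3 arrays as a block the values were 3.03, 2.88 and 2.32. Without all 3, a step chosen after seeing the data, they were 3.47, 3.21 and 2.59 over 2 pregnant and 5 control heifers.

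Among pregnant heifers, 447 was the highest in 20 of the 21 clones, against 46.2% of all clones on the array, the exception being 18KB-10-B04 of MX1, in which 426 was higher. It exceeded the mean of the other 3 by 1.56-fold for MX1, 1.99-fold for MX2 and 1.55-fold for GBP4. Its column also had the highest median of the array (3.18, against 2.50 to 3.05 in the other pregnant and 1.39 to 1.90 in control heifers). Pregnant 316 was the lowest in 11 of the 21, against 37.6%. The remaining pregnant animals were close to one another for each of the 3 genes, within 1.21-fold for MX1, 1.15-fold for MX2 and 1.12-fold for GBP4.

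Transcripts of the conceptus did not follow the same order of animals. The interferon tau gene IFNT2, which encodes the ligand, was brightest in pregnant 448 (geometric mean intensity of 4 clones, 6.95), followed by 426 (2.86), 447 (1.59) and 316 (0.586), while controls ranged from 0.377 to 0.683. TKDP1, a trophoblast Kunitz domain gene, followed the same order, from 16.1 in 448 through 2.85 in 426 and 1.43 in 447 to 0.341 in 316, and controls had 0.187 to 0.401. The summed level of the 3 named genes of 12 on the trophoblast list (IFNT2, TKDP1, TKDP4) was 1.44 to 41.7 in pregnant and 0.955 to 1.79 in control heifers. Heifer 448 thus had by far the brightest trophoblast spots and 316 had spots within the control range. MX1 was 16.9 in 448 and 16.4 in 316. The conceptus had been removed, so these spots are not a measure of the interferon tau that had reached the tissue. Whether the GTPases follow that amount was not tested. Among controls, 427 was the highest for all 3 trophoblast genes, at 0.683 for IFNT2 (0.377 to 0.491 in the others) and 0.401 for TKDP1 (0.187 to 0.245).

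Markers of other cells could be checked in part. Of 10 stroma markers, the 3 collagen genes named on the 18KB array (COL1A1, COL1A2 and COL3A1) fell in pregnant heifers (-2.02, -1.73 and -1.69, limma adjusted p of 0.0047, 0.00735 and 0.00367). Of the 1420 rows tested on that array, 0.634% were called lower. The summed level of the 3 genes was 107 to 436 in pregnant and 622 to 1415 in control heifers. None (0) of the 8 epithelial, 9 leukocyte, 4 endothelial or 6 smooth muscle markers carries a single symbol on this array. On the 18KO array, where 3.86% of 1475 rows were called lower and 0.881% higher, 6 stroma, 2 smooth muscle and 2 epithelial markers are named. There 3 stroma markers fell (COL1A1, COL3A1 and COL6A3) and 1 rose (NR2F2, a transcription factor). The others, COL1A2 (-1.73, limma adjusted p = 0.0251) and FBLN1 (-1.06, adjusted p = 0.0821), were not called. The summed level of the 6 stroma markers was 69.5 to 275 in pregnant and 328 to 1086 in control heifers. Both smooth muscle markers fell (log2 fold change -1.41 for ACTA2 and -1.58 for MYLK; limma adjusted p of 0.00508 and 0.00855), with a summed level of 4.81 to 9.33 against 14.7 to 33.3. The epithelial claudins were not called (CLDN4 1.96, adjusted p = 0.0384; CLDN10 -1.93, adjusted p = 0.118), with a summed level of 19.6 to 33.4 against 7.16 to 20.8. The 18KO array of pregnant 316 had been hybridised again and its values placed through their ratios to 2 other samples; without it, a step chosen after seeing the data, COL3A1 (-1.85, limma adjusted p = 0.0147) and NR2F2 (1.55, adjusted p = 0.026) were no longer called. The part of these cell types in the rise of the GTPases was not tested, and the share of leukocytes, which also express GBP and Mx genes, was not measured here.

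Other named interferon genes were also higher in pregnant heifers, as were 77.9% of the 86 named genes and 15.6% of all rows. Of 20 genes listed for interferon signalling and RNA sensing, the 5 with a symbol on the array (IRF9, RIGI, IFIH1, DHX58 and USP18) all rose, with a median log2 fold change of 2.19 (1.64 to 3.25). Of 68 other interferon-stimulated genes on the list, 19 were named and all 19 rose, with a median of 2.31 (1.11 to 4.85); most genes of both lists are not named on the array. Over the 86 genes with a symbol the median was 1.85, and the 3 GTPases lay at 2.56 to 3.40. Of 11 further interferon-induced GTPases on the list, among them GBP1 and GBP5, none (0) had a symbol on either array. The lists and the genes were chosen with earlier results of these data known, and the named genes had been sequenced largely because they differed here.

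Finally, genes with the most similar pattern were sought in the deviations of each animal from its group mean, by Pearson correlation over the 10 animals. These values are descriptions: all genes share the same 10 arrays, and the median correlation with the other 85 genes was 0.53 for MX1, 0.43 for MX2 and 0.35 for GBP4. MX1 was most like ISG15, a ubiquitin-like modifier (r = 0.97), the locus LOC509283 (0.97) and UBA7, the enzyme that activates ISG15 (0.96). MX2 was most like IFIT3, an antiviral RNA-associated protein (0.95), XAF1, a pro-apoptotic zinc finger protein (0.90), and ISG15 (0.89). GBP4 was most like LOC512869 (0.89), the RNA sensor IFIH1 (0.84) and UBA7 (0.80).

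Between the members themselves the correlations were 0.81 for MX1 with MX2, 0.77 for MX2 with GBP4 and 0.74 for MX1 with GBP4, so that MX2 ranked 19 among the 85 genes by likeness to its neighbour MX1. These values rested on control 427. Without it, over 9 animals, they were 0.27, 0.46 and 0.33, and of the 9 gene pairs named above IFIT3 stayed at rank 1 for MX2 (0.89), LOC512869 at rank 1 for GBP4 (0.78) and LOC509283 among the top 3 for MX1 (0.90). PARP10 (0.95) and TGM2 (0.92) then led for MX1. DKK1 (0.83) and FLNA (0.77) came next after IFIT3 for MX2. CSRNP1 (0.71) and LY6E (0.68) came next after LOC512869 for GBP4. Over the 9 animals the median correlation with the other genes was 0.53 for MX1, 0.20 for MX2 and 0.26 for GBP4. MX2 then ranked 66 by likeness to MX1.

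**Figure D5:**
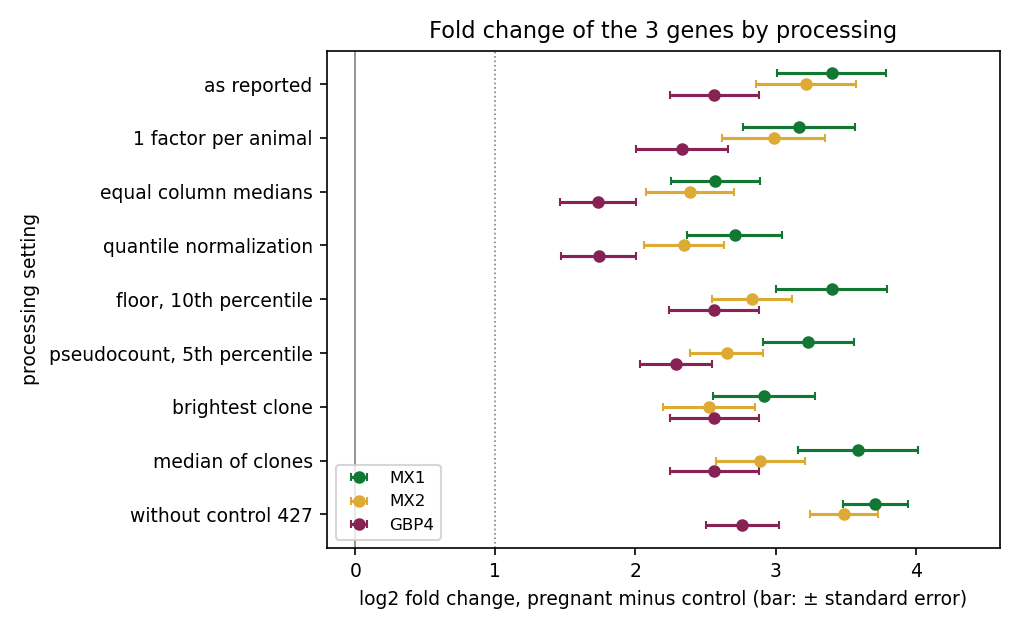
Log2 fold change, pregnant minus control, of MX1, MX2 and GBP4 with its standard error under the reported processing and 8 alternatives; the dotted line marks a 2-fold change. All values stay above the dotted line, and GBP4 is the lowest of the 3 under each setting but the brightest clone, where MX2 is lower.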

How the data were processed

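Spot intensities of 10 heifers on the 18KB array were used as deposited by the authors; their background correction and scaling are not given in the sources. The intensity columns had medians of 1.39 to 3.18, and log2 columns of a group correlated at 0.935 to 0.982. Values under 0.01 were set to 0.01 before log2. Clones were named through the platform's gene table (202 of 1536 with 1 symbol, 9 with several, 1325 with none), and clones of 1 gene were averaged. The identifiers of the 3 genes matched RefSeq, assembly ARS-UCD2.0; no build is named for the clones, so no coordinates are given.

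Pregnant and control animals were compared with limma 3.58.1 in R 4.3.3 (lmFit, eBayes) over 1420 rows, or over all 1536 clones for single clones, with Benjamini-Hochberg adjustment over all of them. The thresholds (adjusted p 0.01, fold 2) follow the series design text, whose own test (SAM) was not run. The fit was tested on simulated data. Differences between genes were tested by exact permutation over animals. Genes alike in pattern were named by rule, the 3 with the highest correlation for each member. No other columns (0) of sample values were present. The members and lists were chosen with earlier results of these data known. The 18KO array entered 1 alternative scaling and the same fit for cell type markers. Single clones, the collagen and trophoblast genes, PARP10, TGM2, PLSCR2, RTP4, PENK and WIPF3 were singled out after their values were seen. So were DKK1, FLNA, CSRNP1 and LY6E. The number of animals limits the precision. Figures were drawn with matplotlib 3.10.9.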

Additional observations from a re-analysis of the deposited data

Results flagged for a closer look

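In 8 of 46 groups of values (3 genes and the 20 clones of MX1 and MX2, in pregnant and in control animals, on the log2 scale) 1 animal lay far from the others, judged by its gap to the nearest animal as a share of the range of the group; chance gives this in about 1 of 20 groups, and the clones of a gene are not independent. In 7 of the 8 it was control 427. Its share was 0.63 for the level of MX1 and 0.70 for that of MX2. Among single clones it was 0.68 for 18KB-07-B03 and 0.83 for 18KB-08-A07 of MX2, and 0.75 for 18KB-09-H06, 0.64 for 18KB-18-C03 and 0.67 for 18KB-18-C05 of MX1. In 18KB-08-A07 pregnant 447 was also far above the other pregnant animals, at an intensity of 12.63 against 4.06 to 4.58, a share of 0.89.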

How the results depend on the processing

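MX1, MX2 and GBP4 kept their direction and their call under every alternative run (25, 26 and 25), with log2 fold changes of 2.57 to 3.71, 2.35 to 3.49 and 1.73 to 2.76. The lowest values came from equal column medians or quantile normalization. Leaving out 1 animal gave 3.24 to 3.71, 2.97 to 3.49 and 2.40 to 2.76. Of the 21 clones 19 to 21 were called. MX1 minus MX2 stayed uncalled, at 0.065 to 0.70. MX1 minus GBP4 lost its call in 7 of 15 alternatives. These were a floor at the 10th percentile (0.84, exact permutation, adjusted p = 0.0714), the brightest clone (0.35), the median of clones (1.02) and leaving out any 1 of the 4 pregnant heifers. The difference ran from 0.64 to 0.95 with 1 animal left out. Adjusted exact permutation p-values over its alternatives were 0.0238 to 0.443. MX2 minus GBP4 lost its call in 8 of 16 alternatives and turned in 1, the brightest clone (-0.040). The 8 were that floor (0.27), a pseudocount at the 5th percentile (0.36), the median of clones (0.33), leaving out clone 18KB-04-H10 (0.36) and leaving out any 1 of the 4 pregnant heifers. The difference ran from 0.49 to 0.73 with 1 animal left out. Adjusted exact permutation p-values over its alternatives were 0.0238 to 0.886. The cause of these changes was not tested. Without the dimmest 25% of clones, 9 of the 11 MX2 clones remained. No paired analysis was possible because pregnant and control animals share no number, and the members are on 1 of the 2 arrays of an animal.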

Other observations

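The place of control 427 between the groups was looked at over named genes that were called higher, a step chosen after seeing the data and reported as a description. It was measured as the distance of 427 from the mean of the other 5 controls, as a share of the distance from that mean to the pregnant mean, on the log2 scale. The share was 0.51 for MX1, 0.46 for MX2 and 0.43 for GBP4. Over the 24 other listed interferon signalling and interferon-stimulated genes it had a median of 0.45, from 0.022 for PLSCR2 to 0.74 for RTP4, and 427 was the highest control in 22 of the 24. Over the 38 named genes that were called higher but are on neither the interferon nor the trophoblast lists the median was 0.10, from -0.59 for PENK, a peptide precursor, to 0.65 for WIPF3, and 427 was the highest control in 11 of the 38. In the 3 collagen genes, which fell in pregnant heifers, 427 was also the highest control and so lay away from the pregnant group: COL1A1 was 526 in 427, 155 to 351 in the other controls and 27.8 to 106 in pregnant heifers. COL1A2 was 303 against 77.8 to 173 and 20.0 to 68.0, and COL3A1 586 against 337 to 553 and 59.3 to 262. Genes off the interferon lists were not checked for induction by interferon, and both medians depend on which genes were listed. Whether the 2 sets of genes differ in this share was not tested.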
